A study of Mus musculus with 10 samples.

Results

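Regions of open chromatin at the ends of genes were examined in ATAC-seq peak lists of mouse haematopoietic stem and progenitor cells (HSPCs). ATAC-seq uses a transposase that cuts and tags accessible DNA, and a peak is a stretch where such cuts pile up. Overlapping peaks (1 bp or more) of 8 HSPC libraries on chromosomes 1 to 19 and X were joined into 103446 regions. A region was taken as a gene-end region when its midpoint lay within 1 kb of the start or end coordinate of a protein-coding gene in the RefSeq table of GRCm38 (mm10). The rule used only position and not the calls, and it kept 15083 regions (14.6%), leaving 88363 elsewhere. A region counts as called in a library when at least 1 listed peak of that library lies in it.

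The cells were lineage-negative bone marrow cells of C57BL/6 mice, with 100000 cells per library and 2 libraries per genotype. The genotypes were wild type (WT), Npm1flox-cA/+ with Mx1-Cre (Npm1c), Flt3ITD/+ (Flt3-ITD) and the double mutant with both alleles and Mx1-Cre (DM). Npm1c is a frameshift form of nucleophosmin found in myeloid leukaemia, and Flt3-ITD is a tandem duplication within the FLT3 receptor that keeps it signalling. Mx1-Cre is a recombinase under an interferon-responsive promoter. It is named for the Npm1c and DM mice alone, so its effect and that of the Npm1c allele cannot be told apart. Lineage depletion removes most mature cells but leaves a mixture of progenitors. In such bulk samples, fewer cells of a type and less accessibility per cell cannot be told apart. The replicates are given as biological but no animals are named, so a p-value measures the spread between these libraries, which may be technical.

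A gene's start is where RNA polymerase is loaded, and the promoter there is kept free of nucleosomes in most cells that can express the gene. Promoters rich in CpG dinucleotides tend to be open in nearly every cell type, while CpG-poor promoters tend to open in the lineages that use the gene. The other end of a gene, where transcripts are cleaved and polyadenylated, is less often accessible, although enhancers and very active genes can give signal there.

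Promoter sequences for 17274 of the 21631 protein-coding genes (79.9%) were available from RefSeq (GRCm38.p6) as 250 bases before to 50 bases after the start. They also give the strand, and so tell starts from other ends. Shown here are 5 of them, each under the region at a known start that ranked highest by peak width in its set of calls, to let the CpG content and the motifs be read beside the calls. Capitals mark matches, on either strand, to any of 15 motifs searched. Irf2bp2 (chr8:126593937-126594236, minus strand), a transcriptional corepressor gene called in all 8 libraries, has 39 CpG and 1 match each to the GC box and NRF1 motifs. Ier5l (chr2:30474150-30474449, minus strand), called in every library but the Npm1c pair, has 26 CpG, 1 GC box and 2 CCAAT boxes. Zfp953 (chr13:67360523-67360822, minus strand), a zinc finger gene not called in Flt3-ITD, has 8 CpG, 1 CRE and 2 STAT matches. C1qb (chr4:136886151-136886450, minus strand), a complement chain made by macrophages and called only with the Flt3-ITD allele, has 6 CpG and none of the 15 motifs. Ackr1 (chr1:173333454-173333753, minus strand), the Duffy chemokine receptor of red cells, not called in DM, has 4 CpG and 1 GATA match.
Irf2bp2: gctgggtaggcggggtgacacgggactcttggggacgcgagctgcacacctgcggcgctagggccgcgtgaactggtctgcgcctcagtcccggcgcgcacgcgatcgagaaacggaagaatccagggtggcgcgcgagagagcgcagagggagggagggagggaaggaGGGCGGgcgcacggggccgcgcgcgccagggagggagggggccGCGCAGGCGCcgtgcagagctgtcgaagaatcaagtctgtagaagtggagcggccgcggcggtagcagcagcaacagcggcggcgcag
Ier5l: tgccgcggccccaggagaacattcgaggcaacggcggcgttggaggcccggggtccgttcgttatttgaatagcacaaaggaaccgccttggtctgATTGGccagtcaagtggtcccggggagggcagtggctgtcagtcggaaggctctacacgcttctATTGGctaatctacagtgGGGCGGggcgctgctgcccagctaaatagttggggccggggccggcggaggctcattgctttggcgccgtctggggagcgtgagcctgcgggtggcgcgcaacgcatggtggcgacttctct
Zfp953: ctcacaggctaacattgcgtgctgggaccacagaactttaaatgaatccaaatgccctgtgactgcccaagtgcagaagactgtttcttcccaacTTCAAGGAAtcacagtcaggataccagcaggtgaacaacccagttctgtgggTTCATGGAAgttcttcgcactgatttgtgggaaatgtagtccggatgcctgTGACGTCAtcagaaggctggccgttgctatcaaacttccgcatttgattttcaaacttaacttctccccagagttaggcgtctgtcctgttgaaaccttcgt
C1qb: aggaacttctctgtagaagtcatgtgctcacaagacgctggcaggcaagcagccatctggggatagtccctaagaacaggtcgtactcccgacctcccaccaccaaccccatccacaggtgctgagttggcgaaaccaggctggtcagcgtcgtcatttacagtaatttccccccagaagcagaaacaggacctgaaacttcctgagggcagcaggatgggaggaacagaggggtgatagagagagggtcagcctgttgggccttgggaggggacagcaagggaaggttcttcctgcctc
Ackr1: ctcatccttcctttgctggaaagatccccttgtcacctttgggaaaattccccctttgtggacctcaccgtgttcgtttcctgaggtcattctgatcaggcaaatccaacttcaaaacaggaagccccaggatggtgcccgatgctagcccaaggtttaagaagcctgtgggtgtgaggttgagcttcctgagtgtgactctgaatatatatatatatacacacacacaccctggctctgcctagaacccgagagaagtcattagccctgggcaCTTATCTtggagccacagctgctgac

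The letters searched, with the share of all 17274 promoters that hold them on either strand, were GGGCGG for the GC box (46.9%), CCAAT for the CCAAT box (39.6%), GCGC-N-TGCGC for NRF1 (6.74%), TGACGTCA for CRE (2.36%), TTCNNNGAA for STAT (7.87%) and AGATAAG for GATA (2.61%). The others were CCGGAAG for ETS (12.1%), CACGTG for the E-box (8.01%), TGANTCA for AP-1 (7.09%), TGTGGTT for RUNX (4.86%), TTGCGCAA for C/EBP (0.22%), GAGGAAGT for PU.1 (3.17%), GAAA-NN-GAAA for IRF (3.43%), GAA-NN-TTC-NN-GAA for the heat shock element (0.486%) and TATAAA for the TATA box (13.4%). N is any base, and matches of different motifs may overlap. A match describes the letters and is not a binding site.

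The lists differ in length, and that length bears on every count below. As deposited, with all chromosomes, they held between 43825 (Flt3-ITD 1) and 80916 (WT 1) peaks, with no heights, scores or read depth, so peak width is the only graded value. Of 10 HSPC marker genes, 8 or 9 had a peak within 1 kb of either end in each library, and Ly6a had none in any. Of the markers of mature blood cells that lineage depletion should remove, T and NK genes reached 2 to 4 of 7 and late erythroid genes 1 to 4 of 5. Macrophage genes reached 2 to 4 of 6, mature neutrophil genes 1 to 3 of 7 and B cell genes 1 or 2 of 5. Dendritic genes reached 5 or 6 of 6, and stromal and endothelial genes 1 to 3 of 7. Counted by the midpoint rule used for gene-end regions, which was tried first, HSPC markers reached 5 or 6 of 10. Ms4a1, Cd22, Cd3g, Lck, Ncr1, Ngp, Mmp9, Cxcr2, Ly6g and Hba-a1 had none in any library. Flt3 had 1 gene-end region, at its start (chr5:147399369-147401254), called in all 8 libraries with peaks of 765 and 784 bp in WT, 652 and 642 for Npm1c, 741 and 753 in Flt3-ITD, and 896 and 1886 for DM. Npm1 had none by the rule, since the nearest region's midpoint lay 1298 bp from its end coordinate, and Mx1 is not protein-coding in the table.

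Gene-end regions were much more often shared by all libraries than other regions were. Of the 15083, 9668 (64.1%) were called in all 8 libraries, against 18.7% of the 88363 regions elsewhere, and their median merged width was 1071 bp against 412 bp. The 9939 regions at a known start carried this: 74.5% were called in all 8, with a median width of 1299 bp. At the 2109 regions near only the other end of a gene, 22.9% were called in all 8 and the median width was 428 bp. These are close to the values for regions not at a gene end, a class that includes regions inside genes. The remaining 3035 lay at genes of unknown strand (325 on chromosome 18), with 58.8% called in all 8. Regions at the starts of 2 or more genes, 911 in number, were called in all 8 in 92.6% of cases, against 72.7% of the 8979 at the start of 1 gene.

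The share called in all 8 depended on the distance from the gene end. It was 72.6% for midpoints within 250 bp, 69.9% in the next step of 250 bp, then 50.7%, and 35.2% in the last step up to 1 kb. In the 4 steps of 250 bp beyond the limit it was 28.3%, 26.3%, 22.8% and 22.8%. In the last 100 bp inside the limit 32.4% of 726 regions were called in all 8, and in the first 100 bp outside it 29.7% of 710. In all, 13365 of the 21631 genes (61.8%) had at least 1 gene-end region.

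The 5 regions that ranked highest by peak width among those called everywhere lay at the starts of Irf2bp2, Iqcn, H2-DMa, Junb and Ddit3. At Irf2bp2 (chr8:126590938-126597010) the widest peaks ran from 5590 to 6023 bp over the 8 libraries. At Junb (chr8:84974737-84981421), an AP-1 subunit gene, they ran from 3752 bp in DM 1 to 5903 bp in WT 1. H2-DMa, a chaperone that loads peptides onto MHC class II, had 4171 to 6185 bp, and the stress factor gene Ddit3 had 3139 and 3183 bp in DM against 4172 to 4898 bp in the other genotypes.

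CpG content followed these calls. A peak covered the 300-base promoter in all 8 libraries for 8519 of 17274 promoters (49.3%), with a median of 22 CpG, and in none for 6946 (40.2%), with a median of 3. The 1809 promoters covered in some libraries lay between, at 13. Of 4 equal groups by CpG count, the poorest (0 to 4 CpG) had 3.08% of 4319 promoters covered in all 8, and the richest (24 to 65 CpG) 83.9%. GC boxes stood in 70.7% of promoters covered in all 8 and in 16.4% of those covered in none, and the ETS motif CCGGAAG in 21.1% and 2.94%. The TATA box TATAAA went the other way, with 5.90% and 23.5%. CCAAT boxes differed little, at 39.9% and 41.3%.

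**Figure D1:**
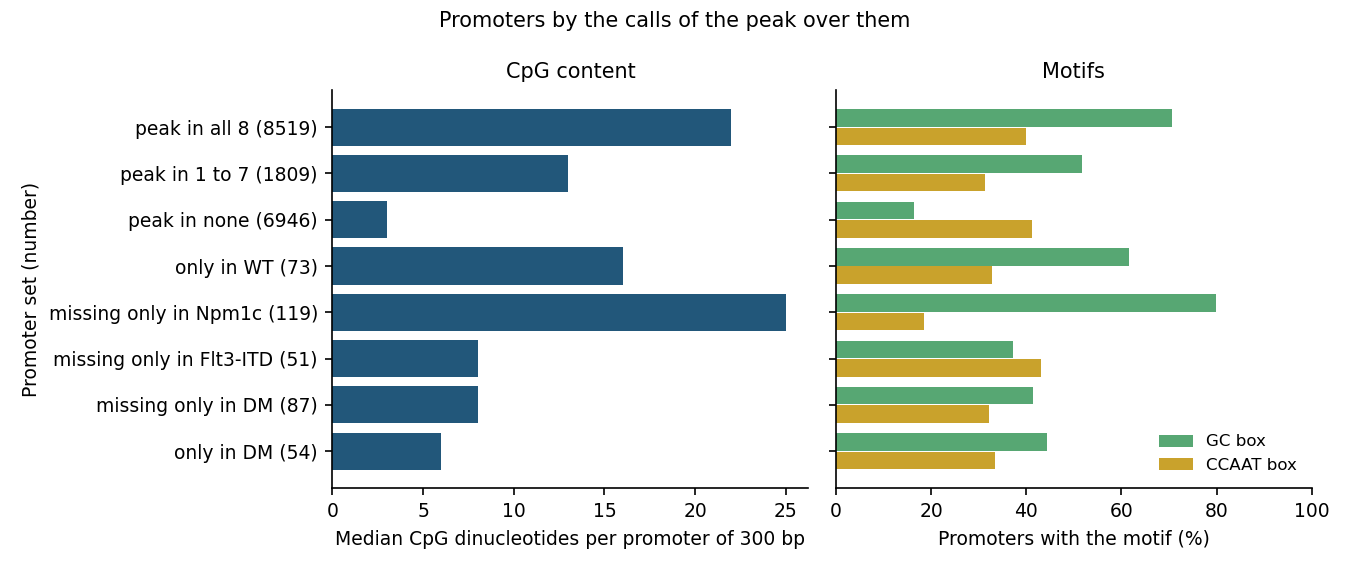
Median CpG count (left) and share with a GC box or CCAAT box (right) of 300-base promoters, grouped by the libraries in which a peak covers them; numbers in brackets are promoters. Promoters covered in all 8 and those missing only in Npm1c have medians of 22 and 25 CpG, and those missing only in DM 8.

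In the lists as deposited, the number of gene-end regions called overlapped between the groups with and without either allele. It was 13686 and 12423 in WT, 11517 and 11970 for Npm1c, 10960 and 11601 in Flt3-ITD, and 11635 and 12046 for DM. WT 1 had most and Flt3-ITD 1 fewest. With the Flt3-ITD allele the mean was 11560.5 ± 448.5 (SD, n = 4) against 12399 ± 934.3 without it (exact permutation p = 0.2, two-sided, adjusted p = 0.48 over 12 tests). With the Npm1c allele it was 11792 ± 255.9 against 12167.5 ± 1176.2 (n = 4 each, exact permutation p = 0.657, adjusted p = 0.686). The number of genes with a called gene-end region ran from 11375 in Flt3-ITD 1 to 12837 in WT 1 (exact permutation p = 0.286 and 0.571 for the 2 alleles, adjusted p = 0.557 and 0.686). Without WT 1 the Npm1c difference turned from -375.5 to 130.7 regions.

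List length bears on both contrasts. In lists cut to one length by dropping the narrowest peaks of the longer lists, the Flt3-ITD difference turned from -838.5 to 87 regions. For the Npm1c allele the groups then no longer overlapped: 11353 and 11105 gene-end regions were called in WT, 10967 and 11066 in Flt3-ITD, 10374 and 10440 with Npm1c, and 10821 and 10766 for DM. The difference was -522.5 regions and, in genes, -397.75 (n = 4 each, exact permutation p = 0.0286, adjusted p = 0.0686 for each). Over the alternatives the adjusted p for the Npm1c allele ran from 0.0686 to 0.914 for regions and from 0.0686 to 0.966 for genes.

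Gene-end regions made up a larger part of the shorter lists. Their share of the called regions was 17.5% and 20.7% in WT, 19.5% and 18.3% for Npm1c, 27.4% and 24.4% in Flt3-ITD, and 22.3% and 20.1% for DM. Both Flt3-ITD libraries stood above all others, while DM 2 lay below WT 2. With the Flt3-ITD allele the share was 23.5 ± 3.10% against 19.0 ± 1.36% (n = 4 each, exact permutation p = 0.0571, adjusted p = 0.171, 0.114 to 0.441 over the alternatives). With lists of equal length it was 26.6% against 25.8% (exact permutation p = 0.257). For the Npm1c allele the share was 20.1 ± 1.66% against 22.5 ± 4.28% (n = 4 each, exact permutation p = 0.343, adjusted p = 0.557). In lists of equal length it was 25.4% with that allele and 27.0% without, in groups that did not overlap (exact permutation p = 0.0286, adjusted p = 0.0686, up to 0.686 over the alternatives). Among gene-end calls of known strand, 85.1% and 87.0% lay at starts in WT, 88.3% and 87.8% for Npm1c, 90.6% and 89.0% in Flt3-ITD, and 89.4% and 88.2% for DM (Flt3-ITD allele, exact permutation p = 0.0571, adjusted p = 0.171, 0.114 to 0.771 over the alternatives). With equal lengths the difference was 0.111 percentage points in place of 2.26. For the Npm1c allele it was 0.486 points as deposited (exact permutation p = 0.686) and 0.897 at equal lengths (exact permutation p = 0.0286, adjusted p = 0.0686, up to 1 over the alternatives).

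**Figure D2:**
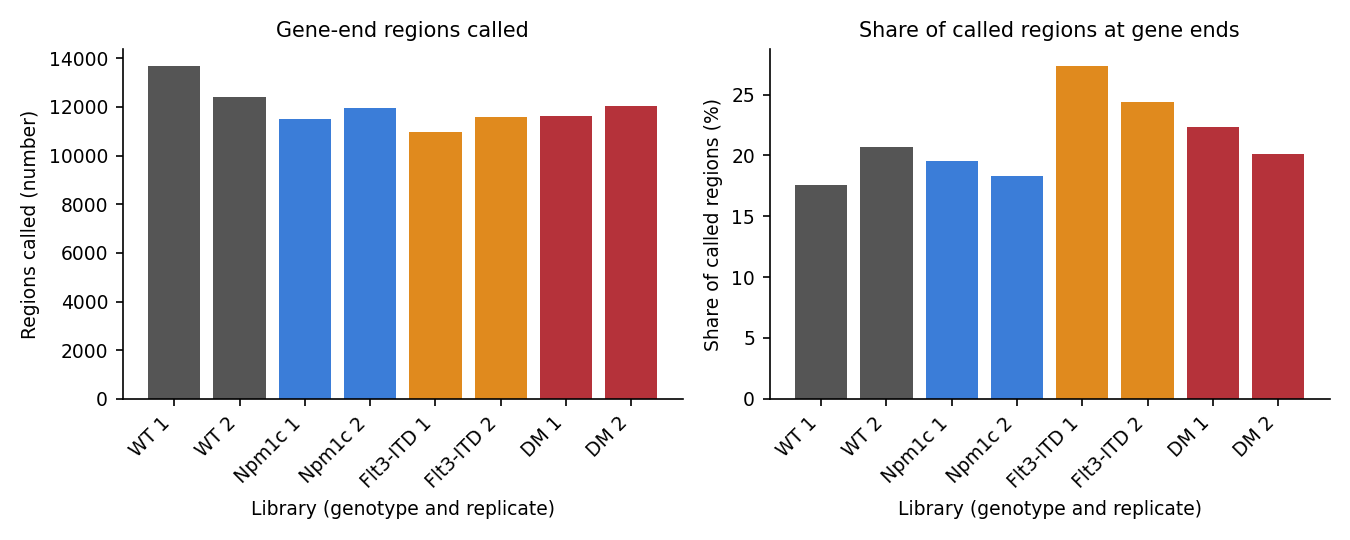
Number of gene-end regions called (left) and their share of all called regions in percent (right), 1 bar per library coloured by genotype. The number, from lists as deposited, runs from 10960 to 13686 with the genotypes overlapping, and the share is highest in the 2 Flt3-ITD libraries, 27.4% and 24.4%.

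Peaks at gene ends were narrower in every library with the Flt3-ITD allele than in any library without it. The median width of gene-end peaks was 1006 and 967 bp in WT, 904 and 920 bp for Npm1c, 720 and 786 bp in Flt3-ITD, and 716 and 724 bp in DM. The mean was 736.5 ± 33.2 bp with the allele and 949.3 ± 46.3 bp without it (n = 4 each, exact permutation p = 0.0286, adjusted p = 0.171, 0.0686 to 0.222 over the alternatives). The unadjusted value is the smallest that 4 libraries against 4 can give, and the adjusted one does not pass 0.05. For the Npm1c allele the means were 816 and 869.8 bp (n = 4 each, exact permutation p = 0.543, adjusted p = 0.686).

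Gene-end peaks were also narrower relative to the other peaks of the same library. Other peaks had medians of 393 and 386 bp in WT, 386 and 389 for Npm1c, 351 and 364 in Flt3-ITD, and 369 and 374 for DM. The ratio of the 2 medians was 2.56 and 2.51 in WT, 2.34 and 2.37 for Npm1c, 2.05 and 2.16 in Flt3-ITD, and 1.94 in both DM libraries. It did not overlap between the groups, at 2.02 ± 0.106 with the Flt3-ITD allele and 2.44 ± 0.106 without it (n = 4 each, exact permutation p = 0.0286, adjusted p = 0.171, 0.0857 to 0.286 over the alternatives). List length moved with this contrast as well. At equal list length the ratio was 1.94 against 2.15 (exact permutation p = 0.0571), while the median width was 788.8 against 1107.6 bp (exact permutation p = 0.0286, adjusted p = 0.0686). That cut drops the narrowest peaks of the longer lists and so raises their widths, which means it cannot decide a contrast of widths. The WT 1 median at gene ends rose from 1006 to 1203 bp, and that of Flt3-ITD 1 stayed at 720 bp.

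A comparison limited to regions called in all 8 libraries, added after these values were seen, holds the set of regions fixed. At the 7400 starts, the median peak was 1391.5 and 1270 bp in WT, 1227 and 1259.5 for Npm1c, 907 and 1028.5 in Flt3-ITD, and 918 and 948.5 for DM. The 4 libraries with the Flt3-ITD allele lay below the other 4, with means of 950.5 ± 54.9 and 1287 ± 72.0 bp (n = 4 each, exact permutation p = 0.0286, adjusted p = 0.114 over 8 tests). At the 483 other ends the means were 467.8 and 529 bp, and in regions not at a gene end 481 and 544 bp, with overlapping groups (n = 4 each, exact permutation p = 0.257, adjusted p = 0.514 for each). The groups of 4 did not overlap, with narrower peaks under the Flt3-ITD allele, in 53.1% of starts, 20.9% of other ends and 27.2% of the 16501 regions elsewhere, where 36.1% of all 26169 regions did so. Over all gene-end regions it was 4964 of 9668 (51.3%), and only 37 were wider without overlap (0.383%, against 1.31% of all regions). With the Npm1c allele 500 gene-end regions (5.17%) were narrower without overlap (3.83% of all regions) and 40 (0.414%) wider (1.85%).

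Peaks were shorter on both sides of the start. For 7329 genes with a peak over the start in all libraries, the peak reached a median of 560 and 511 bp upstream of the start in WT, 497 and 512 for Npm1c, 356 and 406 in Flt3-ITD, and 363 and 379 for DM. Downstream it reached 834 and 768 bp in WT, 730 and 764 for Npm1c, 530 and 617 in Flt3-ITD, and 524 and 542 for DM. The upstream reach was shorter in all 4 libraries with the Flt3-ITD allele for 48.6% of these genes and the downstream reach for 48.8%. They were longer for 0.341% and 0.287%. Reach was measured only at starts. In whole width, 36.1% of all regions called in all 8 libraries were narrower without overlap.

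**Figure D3:**
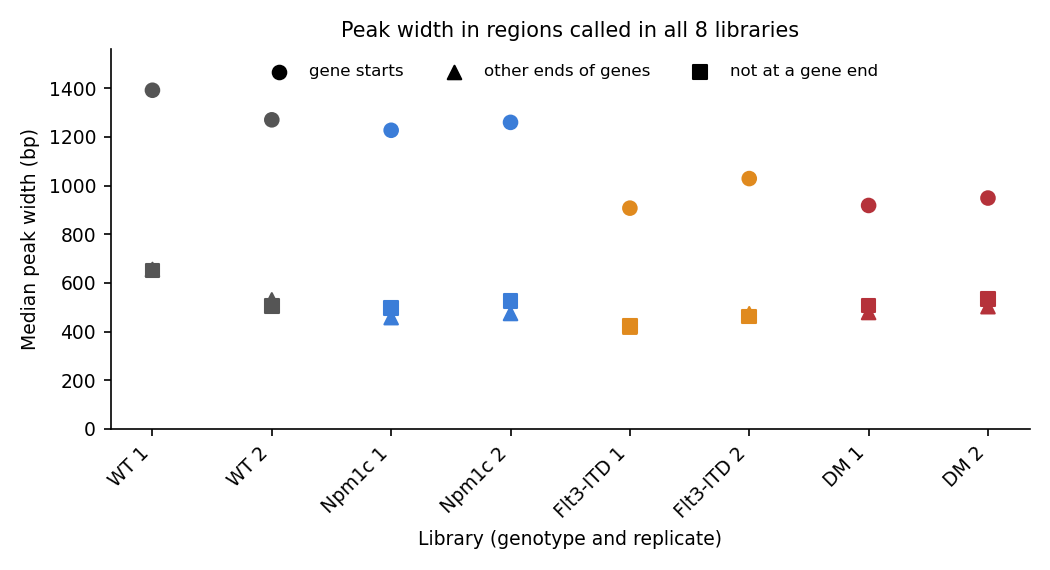
Median peak width in bp, per library, over the 7400 gene starts (circles), 483 other ends (triangles) and 16501 regions not at a gene end (squares) called in all 8 libraries, coloured by genotype. Starts stand at 907 to 1028.5 bp in the 4 libraries with Flt3-ITD and at 1227 to 1391.5 bp in the others, while the other classes overlap.

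The gene-end regions with the greatest narrowing under the Flt3-ITD allele, ranked on that contrast itself and so given as a description, lay at Pcdh7, Gbp2, Angpt1, Plscr2, Ddx58, Parp14, Cenph and Msh4. At Pcdh7 (chr5:57713506-57720413), a protocadherin gene, the widest peak measured 6415 and 6381 bp in WT, 6809 and 6829 for Npm1c, 1822 and 2224 in Flt3-ITD, and 696 and 559 for DM. Angpt1, a ligand of the receptor TEK that stem cells carry, had 2501 and 1393 bp in WT, 3988 and 4084 for Npm1c, 437 and 581 in Flt3-ITD, and 512 and 457 for DM. Gbp2, an interferon-induced guanylate-binding protein gene, had 1327 and 1352, 2371 and 2669, 262 and 378, and 345 and 330 bp in the same order. Ddx58, the cytosolic RNA sensor RIG-I, had 1788 and 1422, 1460 and 1477, 225 and 388, and 284 and 331 bp. In all 4 genes every Flt3-ITD and DM peak was narrower than every WT and Npm1c peak.

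Wider peaks were few and included those at Jag2, Tlr9, Fgd2, H2-Ab1, Shtn1, Gpr146 and H2-Aa. Tlr9, an endosomal receptor for CpG DNA found on B and dendritic cells, had 743 and 525 bp in WT, 568 and 554 for Npm1c, 1412 and 1419 in Flt3-ITD, and 1479 and 1578 for DM. H2-Aa, an MHC class II chain gene, had 365 and 329, 261 and 306, 421 and 390, and 906 and 1707 bp in the same order, so most of its width lay in DM. At Jag2, H2-Ab1, Shtn1 and Gpr146 the groups with and without the allele overlapped, so these 4 of the 7 were not wider in every library with it. Jag2, a Notch ligand gene, was narrowest in Npm1c (1933 and 971 bp in WT, 204 and 438 for Npm1c, 1096 and 1804 in Flt3-ITD, 1930 and 1894 in DM).

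Calls were next compared between genotypes. A region is called gained when both libraries of the first genotype have it and neither of the second does, and lost in the reverse case. An exact test of calls in 2 libraries against 2 cannot reach 0.05, so these counts carry no p, and peak widths were not tested between single genotypes. Comparisons against the same genotype share its libraries. Gene starts had the lowest share gained and lost of the 3 classes of region in each of the 5 comparisons, between 0.151% and 4.37% gained and 1.30% and 5.53% lost. Other ends of genes had 1.14% to 12.6% gained and 4.74% to 23.6% lost, and regions not at a gene end 0.940% to 13.6% and 3.69% to 22.9%. A region called in all 8 libraries can be neither gained nor lost. Such regions were 74.5% of starts, 22.9% of other ends and 18.7% of regions elsewhere. The order of the classes in part restates these shares and cannot show that starts are more stable. The same bears on the shares set beside all regions below, since 64.1% of gene-end regions and 25.3% of all regions were called in all 8.

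**Figure D4:**
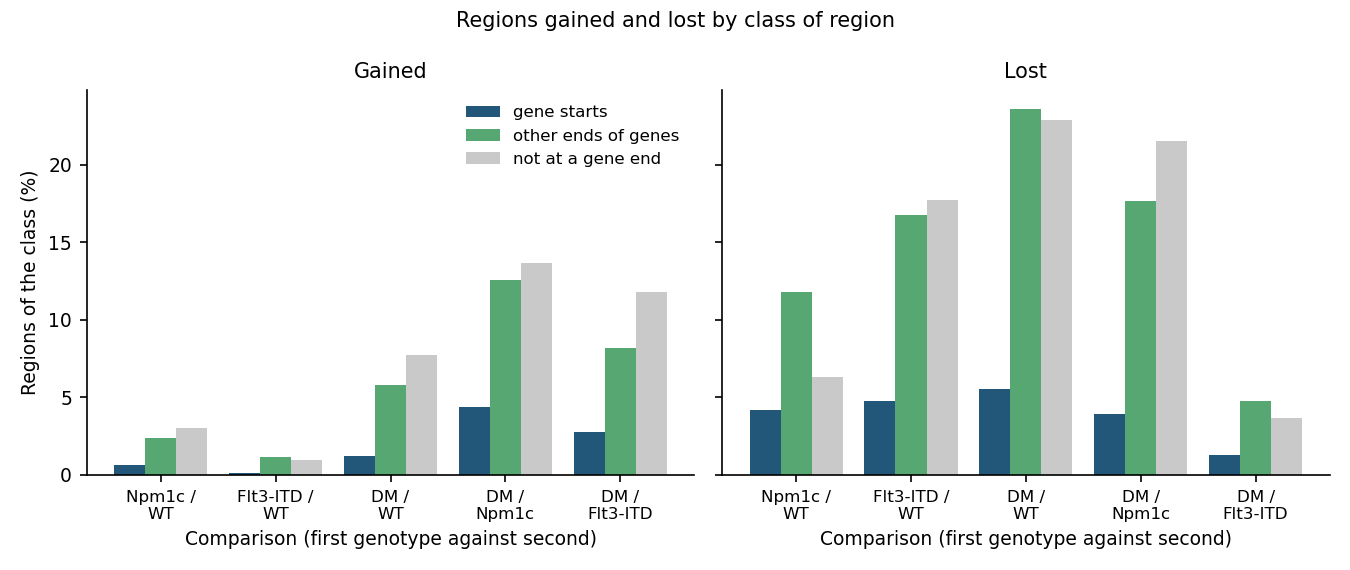
Percent of gene starts, of other ends of genes and of regions not at a gene end that were gained (left) or lost (right) in each of 5 comparisons of genotypes. Gene starts have the lowest bar in each comparison and direction, at most 4.37% gained and 5.53% lost. Regions called in all 8 libraries, 74.5% of starts, can be neither gained nor lost.

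Npm1c against WT gained 131 gene-end regions (0.869%, where 2.71% of all 103446 regions were gained) and lost 878 (5.82%, where 6.26% of all were lost). The widest gains lay at the other ends of Hsph1, Hspa1a, Rpl34, Phc1, Hbb-bs and Dnajb1. Hsph1, an HSP70 co-chaperone, had peaks of 4720 and 2313 bp at its other end (chr5:149614659-149619378) in the 2 Npm1c libraries and none in the other 6. The region at the inducible HSP70 gene Hspa1a (chr17:34968018-34970039) had 1992 and 909 bp in Npm1c and 951 and 1791 bp in DM, and none in WT or Flt3-ITD. Rpl34, a ribosomal protein gene, had 1035 and 870 bp, and the beta-globin gene Hbb-bs 862 and 805 bp, in Npm1c only. These named regions lie where a gene ends and not at its promoter. Of all 131 gained, however, 61 lay at starts, 50 at other ends and 20 at genes of unknown strand.

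The widest losses in Npm1c lay at Nags, Pklr, Phospho1, Mdga1, Lrp5 and Mdk. Nags, which makes the activator of the urea cycle, had peaks of 1752 and 1349 bp over its start (chr11:102145199-102146950) in WT, no peak with Npm1c, 321 and 1203 in Flt3-ITD, and 200 bp in DM 1 only. Lrp5, a Wnt co-receptor gene, had 1085 and 1035 bp in WT, no peak with Npm1c, 1063 and 969 in Flt3-ITD, and 1001 and 534 for DM. Of the lost regions, 416 lay at starts and 249 at other ends. Single libraries weigh on these counts: 313, 326 and 230 were gained without WT 1, Npm1c 1 or Npm1c 2, and 1896 were lost without WT 2.

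Flt3-ITD against WT gained 50 gene-end regions (0.331%, 0.852% of all) and lost 1069 (7.09%, 16.2% of all). The widest gains lay at Dlx3, Alox12, Lrrc32, Thbs1, Btbd2 and Fnbp1. Alox12, the platelet 12-lipoxygenase, had 495 and 652 bp over its start (chr11:70254947-70255598) in Flt3-ITD and none elsewhere. Lrrc32, which holds latent TGF-beta at the surface of platelets and regulatory T cells, had 1026 and 376 bp in Flt3-ITD, 523 and 763 in DM, and none in WT or Npm1c. The widest losses lay at Aqp1, Denn2b, Zfp953, Snx5, Scin and Ifi44l. Aqp1, the red cell water channel, had 1838 and 2071 bp at its other end (chr6:55347543-55349613) in WT, 1055 and 1550 for Npm1c, and none in Flt3-ITD or DM.

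The counts of this comparison moved with list length. At equal list length 273 gene-end regions were gained and 363 lost. Without WT 1, Flt3-ITD 1 or Flt3-ITD 2, 266, 124 or 84 were gained, and 2087 were lost without WT 2 and 1672 without Flt3-ITD 2.

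DM against WT gained 337 gene-end regions (2.23%, 6.93% of all) and lost 1365 (9.05%, 20.9% of all). The widest gains lay at Cd74, Hspa1a, Cdh23, Dlx3, Il2rb and Cst3. Cd74, the invariant chain of MHC class II on chromosome 18, had 1663 and 4307 bp in the 2 DM libraries and none in the other 6. Cst3, a protease inhibitor abundant in dendritic cells, had 971 and 631 bp at its other end in DM only. Il2rb, a chain of the receptors for IL-2 and IL-15, had 603 and 1303 bp in DM and 329 bp in Flt3-ITD 2.

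The widest losses lay at Nkx1-2, Slc25a21, Epha4, Abcg4, Lmo2 and Aqp1. Lmo2 joins TAL1 and GATA factors into 1 complex in blood progenitors. Its region (chr2:103956735-103959012) had 2073 and 2054 bp in WT, 2207 and 2265 for Npm1c, 501 and 1191 in Flt3-ITD and none in DM. Slc25a21, a mitochondrial carrier gene, had 2110 and 2178, 2172 and 2187, and 766 and 803 bp in the same order and none in DM. Epha4, an ephrin receptor gene, had 2503 and 1894, 1728 and 2526, and 428 and 622 bp and none in DM. In each, the Flt3-ITD peaks were narrower than all WT and Npm1c peaks. Equal list lengths gave 525 gained and 875 lost, and 828 or 711 were gained without WT 1 or DM 1 and 2126 lost without WT 2.

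DM against Npm1c gained 936 gene-end regions (6.21%, 12.6% of all) and lost 959 (6.36%, 19.3% of all). The widest gains beside Cd74 lay at Clcf1, Ier5l, Ly86, Prr7 and Rhbdl3. Ier5l (chr2:30473285-30474568), whose promoter is printed above, had 1169 and 613 bp in WT, no peak with Npm1c, 1013 and 1157 in Flt3-ITD, and 1284 and 1233 for DM. Ly86, the partner of the B and myeloid cell receptor CD180, had 386 bp in WT 1 only, no peak with Npm1c, 374 and 563 in Flt3-ITD, and 1112 and 1154 for DM. The widest losses lay at Hsph1, Ackr1, Atp2c1, Lmo2, Slc25a21 and Ybx3. Ackr1 (chr1:173332316-173334929) had 1214 and 1143 bp in WT, 2516 and 2602 for Npm1c, 428 and 955 in Flt3-ITD and none in DM. Without DM 1, 1464 regions were gained.

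DM against Flt3-ITD gained 594 gene-end regions (3.94%, 10.6% of all) and lost 295 (1.96%, 3.44% of all). The widest gains beside Cd74, Hspa1a, Cdh23 and Cst3 lay at Cdh2 and Pom121l2. The widest losses lay at Abcg4, Kdm5b, Anapc2, Ormdl3, Ermap and Slc25a21. Kdm5b, a demethylase of histone H3 lysine 4, had 2051 and 1861 bp in the region over its start (chr1:134559772-134561823) in WT, 1639 and 1662 for Npm1c, 1089 and 1661 in Flt3-ITD and none in DM. Ermap, a red cell membrane protein gene, had 1722 and 1633, 2130 and 2044, and 536 and 1488 bp and none in DM. With lists of equal length the order of the counts turned, with 284 gained and 474 lost. Without Flt3-ITD 2 or DM 1, 895 or 1120 were gained, and 661 were lost without Flt3-ITD 1.

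Gene-end regions were sorted by the genotypes in which both libraries agreed. The 2 libraries agreed in every genotype for 11316 of the 15083 regions (75.0%), against 46.6% of regions elsewhere. Beside the 9668 called in all, 354 were called in WT and Npm1c only (2.35%, where 8.38% of all regions were) and 306 in WT only (2.03%, 3.02% of all). In DM only 243 were called (1.61%, 5.13% of all), in Npm1c only 120 (0.796%, 2.38% of all) and in Flt3-ITD only 14 (0.0928%, 0.209% of all). A further 211 were missing only in Npm1c (1.40%, 1.20% of all), 204 only in DM (1.35%, 2.78% of all) and 82 only in Flt3-ITD (0.544%, 1.15% of all), and none only in WT. Among all regions with each pattern, gene-end regions made up 17.0% of those missing only in Npm1c and 4.58% of those called only in DM. They made up 4.09% of those called in WT and Npm1c only, where 14.6% of all regions are gene-end regions.

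Single genes head these patterns. Regions called only in WT included those at the starts of B4galnt3 and Srsf12 and, at 814 and 520 bp, one at Fli1 (chr9:32542981-32543794), an ETS factor of megakaryocytes and stem cells. Missing only in Npm1c were regions at Ier5l, Lrp5, Gjd3 and Prr7. Gjd3, a gap junction gene, had peaks of 855 to 957 bp in the other 6 libraries. Missing only in Flt3-ITD were the starts of Zfp953, Rgs7, Zfp457 and Foxe3. Zfp953 and Zfp457 are both zinc finger genes on chromosome 13. Zfp953 had 893 and 1332 bp in WT, 1367 and 1565 in Npm1c and 331 and 704 in DM, and Zfp457 746 and 644, 877 and 1076, and 624 and 343 bp.

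Across the alleles, 354 gene-end regions were called in all 4 libraries without Flt3-ITD and in none with it (2.35%, where 8.38% of all regions were). The reverse pattern was seen in 31 (0.206%, where 0.566% of all regions had it). The Fisher exact p of such a region is 0.0286 and its Benjamini-Hochberg adjusted p over 103446 regions 0.320, so no region passes. The losses were headed by Aqp1, Snx5, B3galt2, Ifi44l, Scin and Cyp7b1, and the gains by Dlx3, Lrrc32, Btbd2, Rarg, Gcgr and C1qb. C1qb had 301 and 379 bp over its start (chr4:136886028-136886563) in Flt3-ITD and 521 and 536 bp in DM. At equal list length 149 regions had the pattern without the allele and 177 the pattern with it. Without WT 1 or Flt3-ITD 1, 156 or 60 had the pattern with it.

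For the Npm1c allele, 41 gene-end regions were called in all 4 libraries without it and in none with it (0.272%, where 0.204% of all regions were). The reverse pattern was seen in 3 (0.0199%, where 0.156% of all regions had it). The adjusted Fisher exact p was 1. The 41 were headed by Npr1, Ripor3, Pkdrej, Lrp4, Efcc1 and Klhdc8a. Npr1, a natriuretic peptide receptor gene, had 1221 and 436 bp in WT and 809 and 730 bp in Flt3-ITD. The 3 were at Hspa1a, Olfr2 and Zfp944. Single libraries move both counts: 132 and 72 had the pattern without the allele once Flt3-ITD 1 or DM 2 was left out, and 38, 10, 9 and 9 the pattern with it without WT 1, Npm1c 1, Npm1c 2 or DM 1. Equal list lengths gave 82 and 6.

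To see which kinds of genes these regions belong to, 22 gene lists were followed through 5 comparisons in 2 directions, 220 counts in all, and the lists described first were picked from them after their values were seen. A list is described by its counts beside the share of all 15083 gene-end regions. Regions called in all 8 libraries can be neither gained nor lost. They made up 10.7% (olfactory receptors) to 87.5% (cell cycle and replication) of a list, against 64.1% of all gene-end regions. A list with a low share thus has more regions that can change.

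Erythroid genes lost gene-end calls in DM. Of their 36 gene-end regions, 30 and 29 were called in WT, 28 and 28 for Npm1c, 20 and 25 in Flt3-ITD, and 16 and 11 for DM. Both DM libraries stood below all others. Of the 36, 13 (36.1%) were lost in DM against WT, beside 9.05% of all gene-end regions, and none was gained. They included regions at Ank1, Aqp1, Car1, Epb42, Ermap, Hbb-bs, Hbb-bt, Kel, Rhag, Rhd and Zfpm1. Rhag, which forms the Rh complex of the red cell membrane, had 441 and 438 bp in WT, 1097 and 1862 for Npm1c, 324 and 386 in Flt3-ITD, and none in DM. Kel, a blood group protein gene, had 729 and 755, 2037 and 2006, and 385 and 505 bp and none in DM. Epb42, part of the red cell skeleton, had the same pattern of calls.

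At Klf1 and Epor calls were made in all 8 libraries. At Klf1, the erythroid Kruppel-like factor, the peak over the start measured 2896 and 2771 bp in WT, 1095 and 1236 for Npm1c, 1190 and 2860 in Flt3-ITD, and 823 and 956 for DM. Epor, the erythropoietin receptor, had 2594 and 2603, 941 and 1551, 1097 and 2464, and 518 and 425 bp. In both genes the DM peaks were narrower than those of every other library, and Npm1c peaks were narrower than WT peaks. With lists of equal length 10 regions of the list were lost in DM against WT. The late erythroid markers moved with this list: 3 and 3 of 5 had a peak in WT, 4 and 4 for Npm1c, 3 and 3 in Flt3-ITD, and 2 and 1 for DM, with Hba-a1 at 0 throughout. Their part in the result, which shares genes with the list, was not tested.

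Megakaryocyte and platelet genes had 24 gene-end regions, with 18 and 18 called in WT, 13 and 14 for Npm1c, 20 and 21 in Flt3-ITD, and 12 and 12 for DM. Flt3-ITD libraries had most and DM fewest. In DM 6 (25.0%) were lost against WT and 8 (33.3%) against Flt3-ITD, beside 9.05% and 1.96% of all gene-end regions. Tubb1, the platelet tubulin, had 368 and 418 bp over its start in WT, 296 and 346 for Npm1c, 445 and 534 in Flt3-ITD, and none in DM. Ppbp and Gp6, a platelet chemokine and the collagen receptor, had peaks only in Flt3-ITD (416 and 274 bp, 327 and 336 bp). Gp1bb, a chain of the von Willebrand factor receptor, had 885 and 341 bp in WT and 430 and 314 bp in Flt3-ITD and none in Npm1c or DM.

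Monocyte, dendritic, and T and NK cell genes had most calls in DM. For the 31 gene-end regions of monocyte and macrophage genes, 20 and 14 were called in WT, 14 and 13 for Npm1c, 17 and 19 in Flt3-ITD, and 25 and 25 for DM. In DM against WT 7 (22.6%) were gained and 1 lost, beside 2.23% of all gene-end regions gained. They included C1qa, C1qb, Ctss, Cd68 and 2 regions at the other end of Irf8, the factor that sets monocyte and dendritic fate. The region inside the gene (chr8:120755686-120756607) had 452 and 922 bp in DM only, and the one beyond it (chr8:120757034-120757822) 296 and 218 bp in Flt3-ITD and 659 and 772 for DM. At the start of Irf8 peaks were called in all 8 libraries, with 903 and 587 bp in WT, 517 and 505 for Npm1c, 745 and 798 in Flt3-ITD, and 981 and 1128 for DM. Without WT 1, 13 regions of the list were gained. Some of the 7 had narrow peaks in DM, with 222 and 200 bp at C1qa, 207 and 244 bp at Adgre1, and 326 and 270 bp at Cd68. Flt3-ITD 2 also had peaks at Ctss and Cd68, of 217 and 292 bp. Both regions at the other end of Irf8 are counted again in the dendritic list below.

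Dendritic and MHC class II genes had 28 gene-end regions, 18 and 14 called in WT, 13 and 15 for Npm1c, 17 and 17 in Flt3-ITD, and 23 and 25 for DM. In DM against WT 7 (25.0%) were gained, at Cd74, Ciita, Cd209a, Spib and Irf8, and none was lost. With lists of equal length 12 were gained. Ciita, the master activator of MHC class II genes, had 285 and 477 bp in DM only, and Spib, an ETS factor of plasmacytoid dendritic cells, 302 and 357 bp near its start in DM only. The region over the start of Spib had 333 and 499 bp in DM and 281 bp in Flt3-ITD 1. Of the 22 regions of T and NK cell genes, 15 and 10 were called in WT, 9 and 10 for Npm1c, 11 and 11 in Flt3-ITD, and 20 and 21 for DM. In DM against WT 6 (27.3%) were gained, at Cd6, Cd8a, Il2rb and Thy1, and 10 without WT 1. Thy1, a surface protein of T cells, had 420 and 458 bp at 1 gene-end region in DM only. A second region had 476 and 502 bp in DM and 361 bp in WT 1, and the other had 220 bp in WT 1 alone.

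The markers of these cells share genes with the lists, among them C1qa, C1qb, Adgre1 and Cd8a, so their counts are not separate from the list counts. Macrophage markers had a peak in 2 and 2 of 6 genes in WT, 3 and 2 for Npm1c, 3 and 3 in Flt3-ITD, and 4 and 4 for DM. T and NK markers had 3 and 4 of 7 in DM and 2 in every other library, with Cd3g, Lck and Ncr1 at 0 throughout. Dendritic markers had 5 or 6 of 6 in every library. The part of such cells in these results was not tested.

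Neutrophil granule and surface genes did not separate WT from the other genotypes. Of their 26 gene-end regions, 23 and 13 were called in WT, 15 and 14 for Npm1c, 16 and 16 in Flt3-ITD, and 20 and 22 for DM, so the WT pair held both the highest and the lowest count. In DM against Npm1c 7 (26.9%) were gained and 2 lost, beside 6.21% of all gained, and against WT none was. Prtn3 and Elane, neighbouring protease genes of early granulocytes, had peaks over their starts in WT 1 (264 and 377 bp) and in all Flt3-ITD and DM libraries but none in Npm1c. S100a9 and Camp, made later in neutrophils, had peaks in WT 1 and both Npm1c libraries but in no library with the Flt3-ITD allele. Ltf, another late granule gene, differed from them, with 237 bp in WT 1, 260 and 321 bp in DM and none elsewhere. HOX genes and cofactors, 24 regions, had between 13 and 20 called. Hoxa9, a homeobox gene of progenitors and leukaemia, had a gene-end region in DM only (266 and 310 bp). Stem and progenitor genes had 26 and 20 of 29 called in WT and 16 and 16 in DM, with regions at Lmo2, Tal1, Tek and Fli1 lost in DM against WT (13.8%, beside 9.05% of all gene-end regions). Tek, the angiopoietin receptor, had 321 and 430 bp over its start in WT, 1923 and 1950 for Npm1c, and none in Flt3-ITD or DM.

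Heat shock chaperone genes had the highest share gained in Npm1c of the 22 lists. Of 26 gene-end regions, 20 and 19 were called in WT, 25 and 23 for Npm1c, 18 and 18 in Flt3-ITD, and 19 and 20 for DM. In Npm1c against WT 4 (15.4%) were gained, beside 0.869% of all, at the other ends of Hsph1, Hspa1a, Dnajb1 and Dnajb4, and none was lost. Dnajb1, the main HSP40, had 1726 and 458 bp in Npm1c and 227 bp in DM 2. At the other end of Hspe1, the mitochondrial co-chaperonin, peaks measured 406 and 606 bp in WT and 1707 and 717 for Npm1c, with none in Flt3-ITD or DM.

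Ribosomal protein genes, with 136 gene-end regions, had 120 and 115 called in WT, 113 and 114 for Npm1c, 93 and 96 in Flt3-ITD, and 96 and 92 for DM. In Flt3-ITD against WT 16 (11.8%) were lost, beside 7.09% of all, but 6 with lists of equal length. In Npm1c against WT 10 (7.35%) were lost, near the 5.82% of all, and 6 (4.41%) gained, beside 0.869% of all, and 1 was lost with equal lengths. Interferon response genes had 15 to 20 of 22 regions called in each library. Where called in all 8, their peaks were narrower without overlap under the Flt3-ITD allele in 8 of 15 (53.3%), near the 51.3% of all gene-end regions. Cell cycle and replication genes had this in 18 of 28 (64.3%) and erythroid genes in 7 of 10. Among dendritic genes it was 0 of 12, with 3 wider. The other lists, on B-lymphoid, mast cell, stromal, JAK-STAT, AP-1, DNA and histone methylation, general transcription, histone and other-tissue genes and olfactory receptors, had at most 6 regions gained or lost in any comparison. The most for its size was 5 of 11 regions of mast cell and basophil genes, gained in DM against Npm1c (45.5%, beside 6.21% of all gene-end regions).

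**Figure D5:**
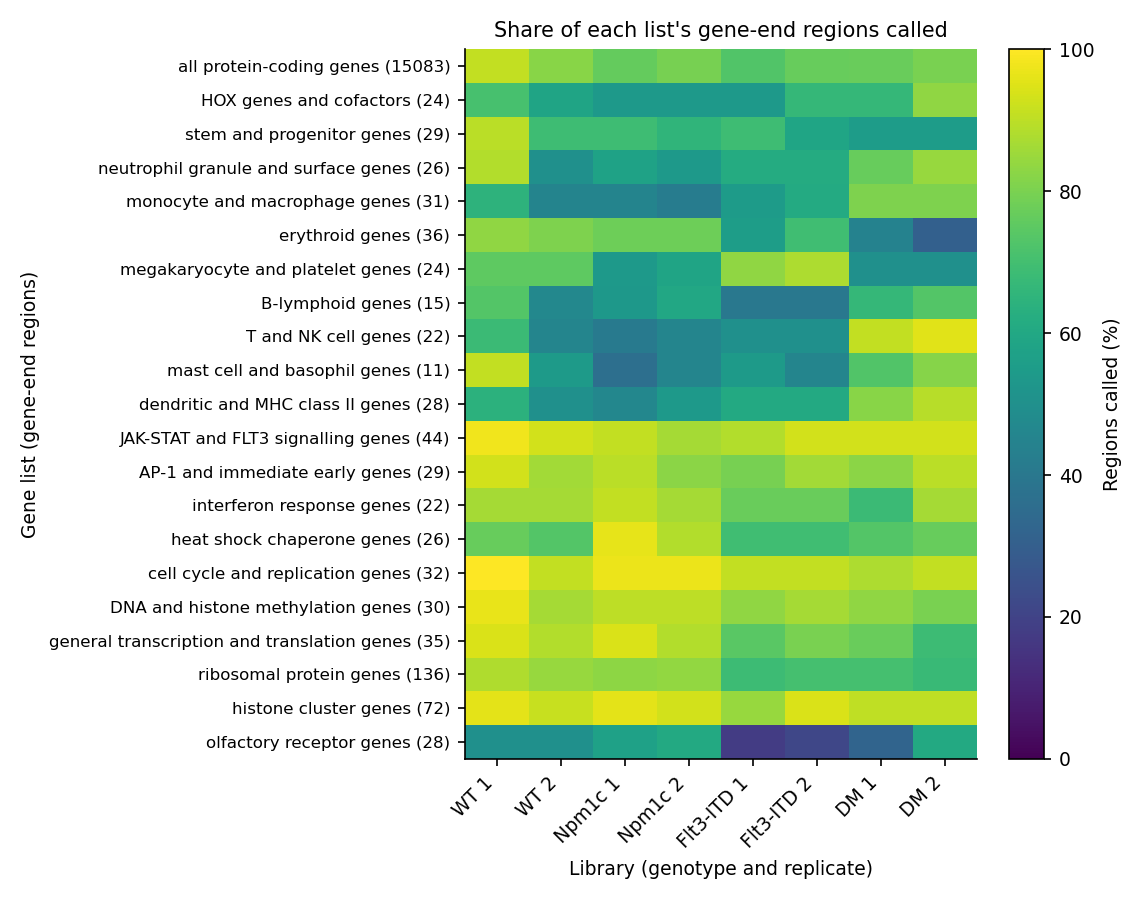
Percent of each list's gene-end regions called in each library, as colour from 0 to 100, for all gene-end regions (top row) and the lists with at least 10; the number of regions is in brackets. Erythroid genes are lowest in DM (16 and 11 of 36), and T and NK cell genes highest there (20 and 21 of 22).

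Promoter letters differed between the patterns of calls. From 15 motifs in 21 sets of promoters, 315 shares, the following were picked after they had been seen and are a description. The 119 promoters missing only in Npm1c had a median of 25 CpG, and 79.8% held a GC box, 18.5% a CCAAT box and 1.68% an ETS match, where all promoters covered in all 8 libraries had 70.7%, 39.9% and 21.1%. The 87 missing only in DM had 8 CpG, and 10 (11.5%) held the GATA letters against 2.61% of all promoters and 1.43% of those covered in all 8. Ackr1, printed above, is one of them. The GATA share was raised in other sets as well, at 7.84% (4 of 51) missing only in Flt3-ITD and 7.61% (7 of 92) covered only in WT and Npm1c. It was 8.13% (23 of 283) for those lost in DM against Npm1c, and 0.840% (1 of 119) for those missing only in Npm1c. In the 417 promoters lost in DM against WT none held the PU.1 letters GAGGAAGT, which 3.17% of all promoters hold, and 3 of the 70 gained in that comparison (4.29%) did. Of the 205 gained in DM against Flt3-ITD 15 (7.32%) held them, and of the 125 lost there none. These counts are small. None of the 73 promoters covered only in WT held the letters either, and 6 of the 361 lost in Flt3-ITD against WT (1.66%) did. The 54 covered only in DM had 6 CpG.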

How the data were processed

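Peaks of 8 HSPC libraries, 2 for each of 4 genotypes, were used. The 2 neutrophil samples were not analysed here. Per the submitters' processing notes, Bowtie2, MACS2 and mm10 were used, and versions and settings are not given in the sources used here. Each library came as 1 list: the authors deposited peak lists of 3 columns (chromosome, start, end) with no score, count or depth, so calls at low depth cannot be told from absent peaks, and interval coordinates (unit other) are the deposited values. The lists held 43825 to 80916 peaks.

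Peaks were merged at 1 bp of overlap and assigned to genes by midpoint, within 1 kb of either coordinate of a protein-coding gene. Starts were told from other ends with RefSeq promoter strands, which exclude chromosome 18. Library measures were compared between the 4 libraries with and the 4 without an allele by exact two-sided permutation tests over 70 relabellings, adjusted by Benjamini-Hochberg over 12 tests. Single regions were tested by Fisher's exact test over 103446 regions. Permutation p-values were checked on simulated numbers, and merging against a second program on the deposited lists. Gained and lost calls were checked by removing peaks of chosen regions from a copy of the data, which checks the counting alone. Same-numbered libraries of different genotypes did not deviate together (correlations of -0.0399 to 0.0387 over 6 pairs, 0 above 0.1), so the numbers were not taken as pairs.

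Named regions were those with the highest mean within-library width percentile, 6 per direction of a comparison, 5 of those called in all 8 libraries and 4 per pattern of calls. Further genes come from the lists, and were chosen after their values were seen. Some genes that these rules select are not reported here. The members and the gene lists were chosen with earlier results of these data known. Widths in regions called in all 8 libraries, reach to either side of starts, width extremes, list widths and promoter sets were added after seeing the data. Alternatives were other windows, overlap rules, peak widths, gene sets, equal list lengths (the 43794 widest peaks of each list), blocks and leaving out each library. Python 3.11.15, numpy 2.4.6, pandas 2.3.3, scipy 1.17.1 and matplotlib 3.10.9 were used.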

Additional observations from a re-analysis of the deposited data

Results flagged for a closer look

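Among the 4 libraries with the Flt3-ITD allele, Flt3-ITD 2 stood far from the others in the median width of gene-end peaks, at 786 bp with the nearest other library at 724 bp. This was 1 of 24 groups of libraries checked, and chance alone marks about 1 in 20.

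In 5 of 56 measures checked, both libraries carrying an allele moved one way on one background and the opposite way on the other. These differences were not tested. The number of gene-end regions called was 1311 lower in Npm1c than in WT (a difference of -1311) and 560 higher in DM than in Flt3-ITD, so the 2 effects differ by -1871. The number of genes with a called gene-end region changed by -840.5 and 353.5 in the same comparisons, which differ by -1194. Mast cell and basophil genes had -3.5 called regions in Npm1c against WT and 3 in DM against Flt3-ITD, a difference of -6.5. Called regions of megakaryocyte and platelet genes differed by 2.5 between Flt3-ITD and WT and by -1.5 between DM and Npm1c, so by 4 between backgrounds. For B-lymphoid genes the values were -3 and 2, a difference of -5.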

How the results depend on the processing

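None of the 12 tests of library measures passed an adjusted 0.05, as reported or under any alternative run. Of 218 alternative values of the 12 library measures 212 kept their direction and 6 turned. Lists of equal length turned the Flt3-ITD allele's difference in gene-end regions called to 87 and in genes to 104.75. At equal length 4 Npm1c measures (regions, genes, both shares) passed 0.05 unadjusted (exact permutation p = 0.0286) and not adjusted (0.0686). The Npm1c allele's difference in the share at starts became -0.033 points when all genes of the table were used. Leaving out 1 library turned 3 more, so that the Npm1c allele's differences ran from -778 to 130.7 regions, from -463.7 to 23.7 genes and from -0.46 to 1.38 points at starts. The lowest came without Flt3-ITD 1 for regions and genes and without WT 1 for starts. With the replicate block, where numbers pair libraries, the Flt3-ITD width difference was -212.75 bp (exact permutation p = 0.0556, adjusted p = 0.222), and 0.0556 is the smallest p it allows, as with the other allele as block. Unadjusted, both width results thus lose 0.05 there.

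Of 184 alternative counts of gene-end regions 106 stayed within 1.5 times and 78 did not. Counts follow the order Npm1c against WT, Flt3-ITD against WT, DM against WT, DM against Npm1c and DM against Flt3-ITD. A window of 500 bp gave 44 (first), 182, 596 and 349 (last 3) gained, 572, 636, 782, 478 and 188 lost, and 177 called without and not with the Flt3-ITD allele. A window of 2 kb gave 363, 99, 702, 1665 and 1123 gained, and 1397, 2072, 2681, 2178 and 531 lost. It gave 64 regions called with and not without the Flt3-ITD allele, 813 the reverse, and 16 and 63 for Npm1c. All genes of the table gave 223, 91, 745, 1672 and 1190 gained. They gave 1864, 2382, 1826 and 470 lost in the last 4, and 64 and 721 for the Flt3-ITD allele and 10 with Npm1c only. These 3 settings change which regions are counted. Equal list lengths gave 273 and 363 (Flt3-ITD against WT), 525 and 875 (DM against WT) and 284 and 474 (DM against Flt3-ITD) gained and lost, and 177 and 149 for the Flt3-ITD allele and 6 and 82 for Npm1c. Peaks covering at least 50% of a region gave 2215, 2993, 2353 and 543 lost in the last 4, 1040 without Flt3-ITD only and 79 without Npm1c only. The region-overlap rule and peaks of at least 300 bp each gave 8 with Npm1c only. The cause was not tested. Of 66 list counts 60 stayed within 1.5 times.

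Leaving out 1 library, gained counts ran from 164 to 326, 52 to 266, 341 to 828, 1057 to 1464 and 699 to 1120, and lost counts from 978 to 1896, 1147 to 2087, 1504 to 2126, 1085 to 1371 and 333 to 661. The Flt3-ITD allele's patterns ran from 31 to 156 with and 360 to 516 without it, and the Npm1c allele's from 3 to 38 and 42 to 132. Depth is unknown, so an uncalled region may be open but below detection.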

Other observations

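Genes of the signalling pathway that the FLT3 receptor feeds were called in most libraries. Of the 44 gene-end regions of JAK-STAT and FLT3 signalling genes, 36 were called in all 8 libraries, and between 38 (Npm1c 2) and 43 (WT 1) in each. One of the others lies within 1 kb of the starts of both Stat5a and Stat5b (chr11:100858323-100859505), the STAT5 genes. Its peak measured 322 bp in WT 1, 534 and 400 bp in Flt3-ITD, and 825 and 1175 bp in DM, and WT 2 and both Npm1c libraries had none. Another, at the other end of Stat3, had 407 to 695 bp in the 6 libraries of WT, Npm1c and Flt3-ITD and none in DM, while the start of Stat3 was called in all 8. At the start of Jak2, the kinase that phosphorylates STAT5 below many cytokine receptors, peaks were called in all 8 libraries. They measured 2587 and 2603 bp in WT, 3331 and 2462 bp with Npm1c, 1339 and 2501 bp in Flt3-ITD, and 1262 and 1317 bp for DM, so that Flt3-ITD overlapped Npm1c.

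Olfactory receptor genes, which blood cells mostly keep silent, had a gene-end region at 24 of 1106 genes. Of these 28 regions 14 and 14 were called in WT, 16 and 17 with Npm1c, 5 and 6 in Flt3-ITD, and 9 and 17 for DM. The number was lowest in the 2 libraries with the shortest peak lists, and the part of list length in it was not tested. Histone cluster genes had 61 (Flt3-ITD 1) to 69 (WT 1 and Npm1c 1) of 72 regions called. These genes were chosen after their values were seen.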
